A study of Mus musculus with 11 samples.

Results

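The DNA replication and nucleotide reduction genes were a listed set of 44 genes whose products license origins, unwind and copy DNA, assemble chromatin behind the fork and supply deoxynucleotides. They were matched by gene symbol to microarray probe sets that carry 1 symbol, and a gene with several such probe sets was read from the one with the highest mean. In all, 43 of the 44 were measured among 22180 genes. Rfc4, a subunit of the clamp loader, lay only on a probe set that carries several symbols and was not analysed here.

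The samples came from 720, a line of mouse T-ALL (leukaemia of immature T cells) taken from a Tcf12+/- mouse whose Tal1 transgene runs from the Lck promoter. All arrays therefore share the Tcf12+/- background, the transgene and a single cell line. The cells had 8 h with 1 of 3 compounds, each labelled a Runt domain inhibitor, and live cells were recovered for total RNA. AI-9-54 was given at 50 µM (4 arrays, replicates 1 to 4), AI-8-45 at 100 µM (4 arrays, replicates 1 to 4) and AI-7-54 at 100 µM (3 arrays, replicates 1, 3 and 4). Arrays of untreated or vehicle-treated cells were not analysed here, so a lower level with one compound and a higher level with the other cannot be told apart. AI-8-45 against AI-7-54 was the comparison at matched dose and time. In both comparisons with AI-9-54 the doses differ, and compound and dose cannot be told apart. The labels do not say whether replicates were separate cultures, so every p-value rests on array-to-array spread that may be partly or wholly technical.

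Eukaryotic replication starts when the origin recognition complex, Cdc6 and Cdt1 load the Mcm2 to Mcm7 helicase on chromatin before S phase. In S phase Cdc45 and the GINS complex join the helicase, Mcm10 helps to activate it, and polymerases alpha, delta and epsilon synthesise DNA with the sliding clamp Pcna. Ribonucleotide reductase, thymidine kinase, thymidylate synthase and dUTPase feed and clean the deoxynucleotide pools. Transcription of many of these genes rises as cells enter S phase, under E2F transcription factors, so that their level in a culture also follows how many of its cells are cycling. In bulk RNA, fewer cycling cells and less of these RNAs per cell cannot be told apart.

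The promoters of the measured genes, whether or not their levels differed between compounds, were searched for shared sequence and are shown first. RefSeq promoters (build GRCm38.p6, 250 bases before to 50 bases after each gene's start) were found for 35 of the 43 genes, which had 41 promoters. The E2F motif was taken as any of the letters TTTGGCGC, TTTCCCGC, TTTGCCGC or TTTCGCGC on either strand. It occurred in 13 of the 41 promoters (31.7%), against 2.26% of all 32851 promoters of the same length. By gene, 13 of the 35 held it (37.1%), against 2.6% of all genes with a promoter. Among other replication genes, a further list described below, 10 of 33 with a promoter held it (30.3%). The 4 genes with the smallest adjusted p between AI-8-45 and AI-7-54 among those holding the motif are printed 5′ to 3′ along the gene, with the E2F letters in capitals.
Cdc6 (chr11:98907901-98908200, plus strand): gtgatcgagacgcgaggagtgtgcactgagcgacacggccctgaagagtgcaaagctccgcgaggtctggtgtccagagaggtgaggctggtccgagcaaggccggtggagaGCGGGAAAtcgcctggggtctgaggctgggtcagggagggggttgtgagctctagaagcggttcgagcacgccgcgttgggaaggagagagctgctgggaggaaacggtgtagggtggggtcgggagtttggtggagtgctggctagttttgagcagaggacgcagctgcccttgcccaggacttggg
Pole2 (chr12:69228141-69228440, minus strand): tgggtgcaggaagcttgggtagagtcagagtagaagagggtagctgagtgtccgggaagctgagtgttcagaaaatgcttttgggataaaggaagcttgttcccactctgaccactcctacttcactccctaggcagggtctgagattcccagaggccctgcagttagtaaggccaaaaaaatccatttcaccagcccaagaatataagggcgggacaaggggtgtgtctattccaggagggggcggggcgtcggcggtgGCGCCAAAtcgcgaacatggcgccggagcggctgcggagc
Pold1 (chr7:44548766-44549065, minus strand): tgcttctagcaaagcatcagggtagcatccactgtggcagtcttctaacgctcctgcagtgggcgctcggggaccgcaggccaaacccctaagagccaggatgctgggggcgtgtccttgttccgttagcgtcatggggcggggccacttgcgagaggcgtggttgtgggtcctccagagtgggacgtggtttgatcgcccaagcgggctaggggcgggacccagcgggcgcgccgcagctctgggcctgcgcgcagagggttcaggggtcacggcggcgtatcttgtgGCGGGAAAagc
Mcm6 (chr1:128359656-128359955, minus strand): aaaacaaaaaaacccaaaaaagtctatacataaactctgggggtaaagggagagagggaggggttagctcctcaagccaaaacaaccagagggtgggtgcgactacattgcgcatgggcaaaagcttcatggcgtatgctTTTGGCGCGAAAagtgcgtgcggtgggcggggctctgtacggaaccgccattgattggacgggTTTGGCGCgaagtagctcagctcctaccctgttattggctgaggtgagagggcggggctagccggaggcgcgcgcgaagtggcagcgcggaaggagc
The first capital lies at position -138 in Cdc6, 10 in Pole2 and 39 in Pold1, counted from 0 at the start site. In Mcm6 the first run of capitals holds a pair of overlapping matches, on opposite strands, at positions -110 and -106, and a separate match begins at -47. Matches in other licensing genes are shown as short windows, since their spacing to the start differs.
Mcm5 window: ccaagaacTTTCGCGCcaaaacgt
Orc1 window: ggttagtgGCGCGAAAagttttct
Mcm7 window: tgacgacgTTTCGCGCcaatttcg
The Mcm5 window begins its capitals at -153, where an overlapping match on the opposite strand follows at -149, the Orc1 window at -27 and the Mcm7 window at 16. A match is a description of letters and not a shown binding site.

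The CCAAT box bound by NF-Y, another frequent element of cell-cycle promoters, occurred on either strand in 25 of the 41 promoters (61%), against 37.4% of all promoters. TGTGGT, the core letters that Runt domains bind, occurred on either strand in 7 of the 41 (17.1%), against 16.8% of all promoters. The 7 genes with TGTGGT were Orc2, Orc6, Mcm3, Mcm10, Rfc1, Rrm1 and Tk1.

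All 43 genes had a mean over the arrays above the median gene's 6.91 on the log2 scale, with gene means between 8.40 and 12.4. Averaged over the 43 genes, the log2 value was 10.14, 10.18, 10.37 and 10.35 on the AI-9-54 arrays, 10.19, 10.14, 10.24 and 10.37 on the AI-8-45 arrays, and 10.42, 10.56 and 10.52 on the AI-7-54 arrays. Every AI-7-54 array lay above every array of the other compounds in this average. Replicate 3 of AI-7-54 held the highest value for 26 of the 43 genes, and replicate 1 of AI-9-54 the lowest for 15. Within each compound, replicates 3 and 4 lay above replicates 1 and 2 in this average. The fit holds this replicate set (1 and 2, or 3 and 4) as a factor. The labels give no meaning to the sets, which were chosen as a factor after earlier results showed that they separate the arrays, so the fit's p-values may be too small. Counts without the factor are given beside the first counts. With 3 or 4 arrays a compound, array number limits the precision.

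**Figure D1:**
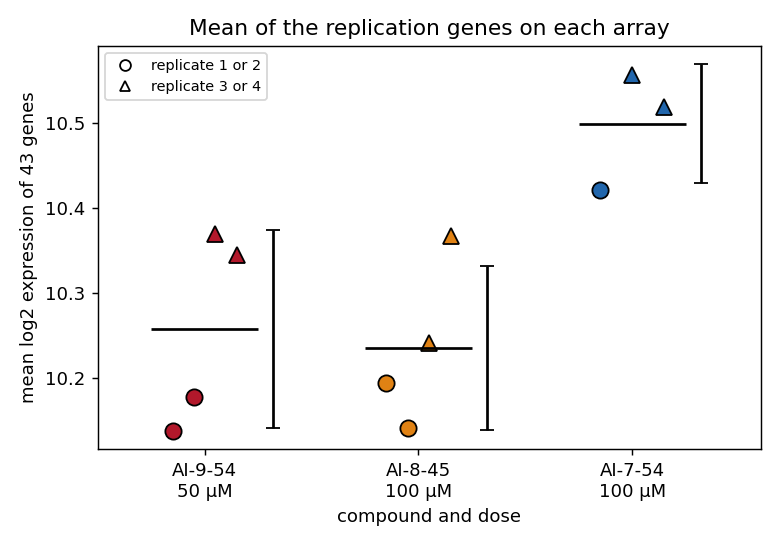
Mean log2 expression of the 43 replication genes on each array (points), by compound and dose; circles are replicates 1 and 2, triangles replicates 3 and 4, horizontal lines the group means and bars the group mean ± SD. The 3 AI-7-54 arrays sit between 10.42 and 10.56, above the 8 arrays of the other compounds, of which AI-9-54 spans 10.14 to 10.37.

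**Figure D2:**
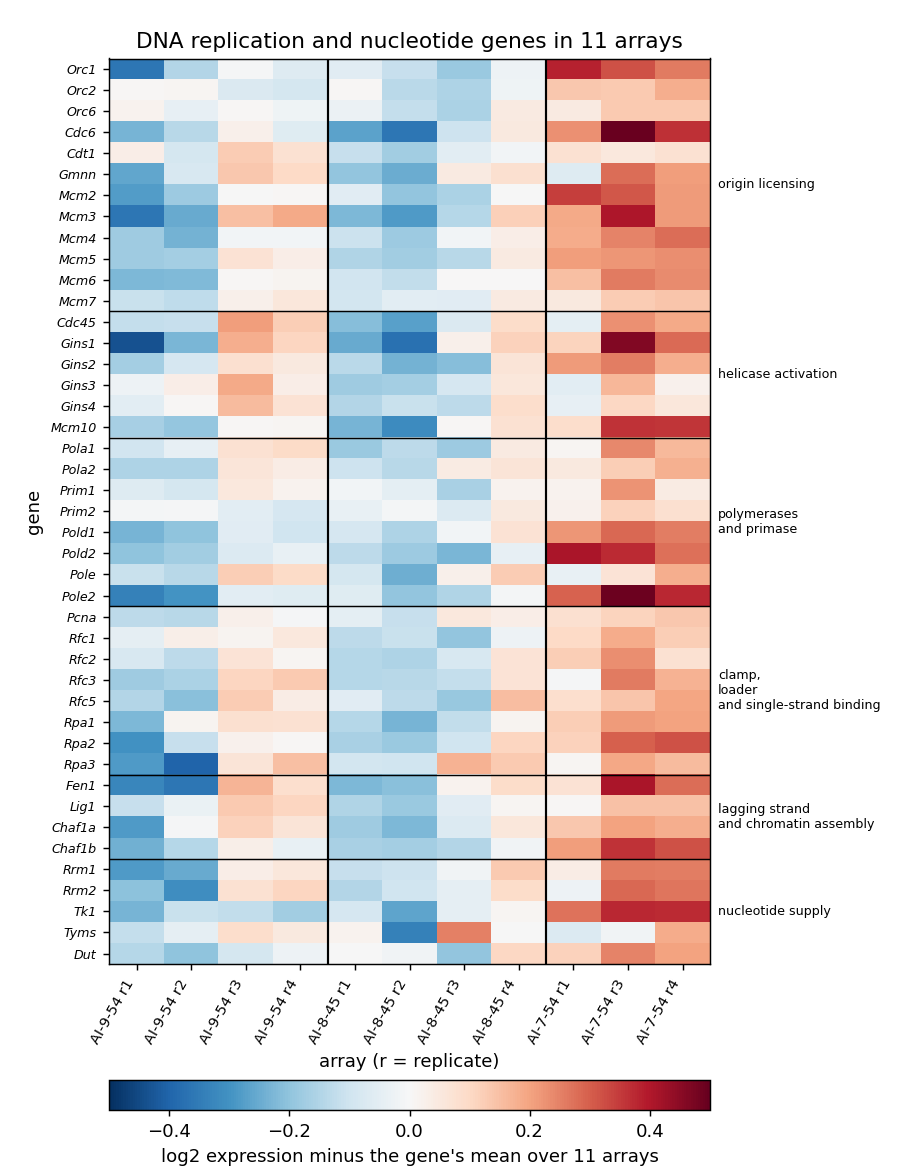
Log2 expression of each of the 43 genes (rows, grouped by role) on each of the 11 arrays (columns), less the gene's mean over all arrays; blue is below and red above that mean. The AI-7-54 columns are mostly red, replicate 4 for all 43 genes, and replicate 2 of AI-8-45 is blue for all 43.

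At matched dose, AI-8-45 cells had lower levels of replication genes than AI-7-54 cells across licensing, helicase, polymerase and chromatin assembly roles. All 43 differences (AI-8-45 minus AI-7-54, log2 scale) were below 0, against 49.3% of all genes. By limma's moderated test with Benjamini-Hochberg adjustment over all genes, 27 of the 43 were lower at an adjusted p under 0.05 and 0 were higher, where 5.19% of all genes were called lower and 3.59% higher. No gene of the set was higher at an unadjusted p under 0.05 either. All 43 lay above the median gene, and calls were more frequent among brighter genes. With the dimmest 50% of genes left out of the fit, 1534 of 11090 genes were called lower and 1095 higher. The 27 were 1.12-fold to 1.41-fold lower, and the median difference of the 43 was -0.23, against 0.00 for all genes. The arrays did not overlap for 25 of the 43, all with AI-8-45 below, against 9.07% of all genes with AI-8-45 below and 6.79% above. Without the replicate set as a factor 16 of the 27 calls remained and none was added, where 3.53% of all genes were called lower and 2.13% higher. Leaving out replicate 1 of AI-7-54 gave 15 genes called lower, where 757 of all 22180 genes were. Leaving out replicate 3 of AI-7-54 gave 17, where 687 of all genes were.

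Cells given AI-9-54 at 50 µM also had lower levels of many of these genes than cells given AI-7-54 at 100 µM. Of the 43 genes 23 were lower and 0 higher, where 9.21% of all genes were called lower and 8.99% higher. In the fit without the dimmest 50% of genes, 2279 of 11090 genes were called lower and 2142 higher. The 23 were 1.10-fold to 1.46-fold lower, and the median of the 43 was -0.19. Differences (AI-9-54 minus AI-7-54) were below 0 for 41 genes, against 50.5% of all genes, and the exceptions were Gins3 at 0.04 and Gins4 at 0.03, whose intervals held 0. Arrays did not overlap for 23 of the 43, all with AI-9-54 below, against 12% of all genes with AI-9-54 below and 11.3% above. Without the replicate set 15 of the 23 calls remained, where 7.29% of all genes were called lower and 6.87% higher. Both comparisons use the same 3 AI-7-54 arrays, so they are not independent, and their values are set side by side below.

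**Figure D3:**
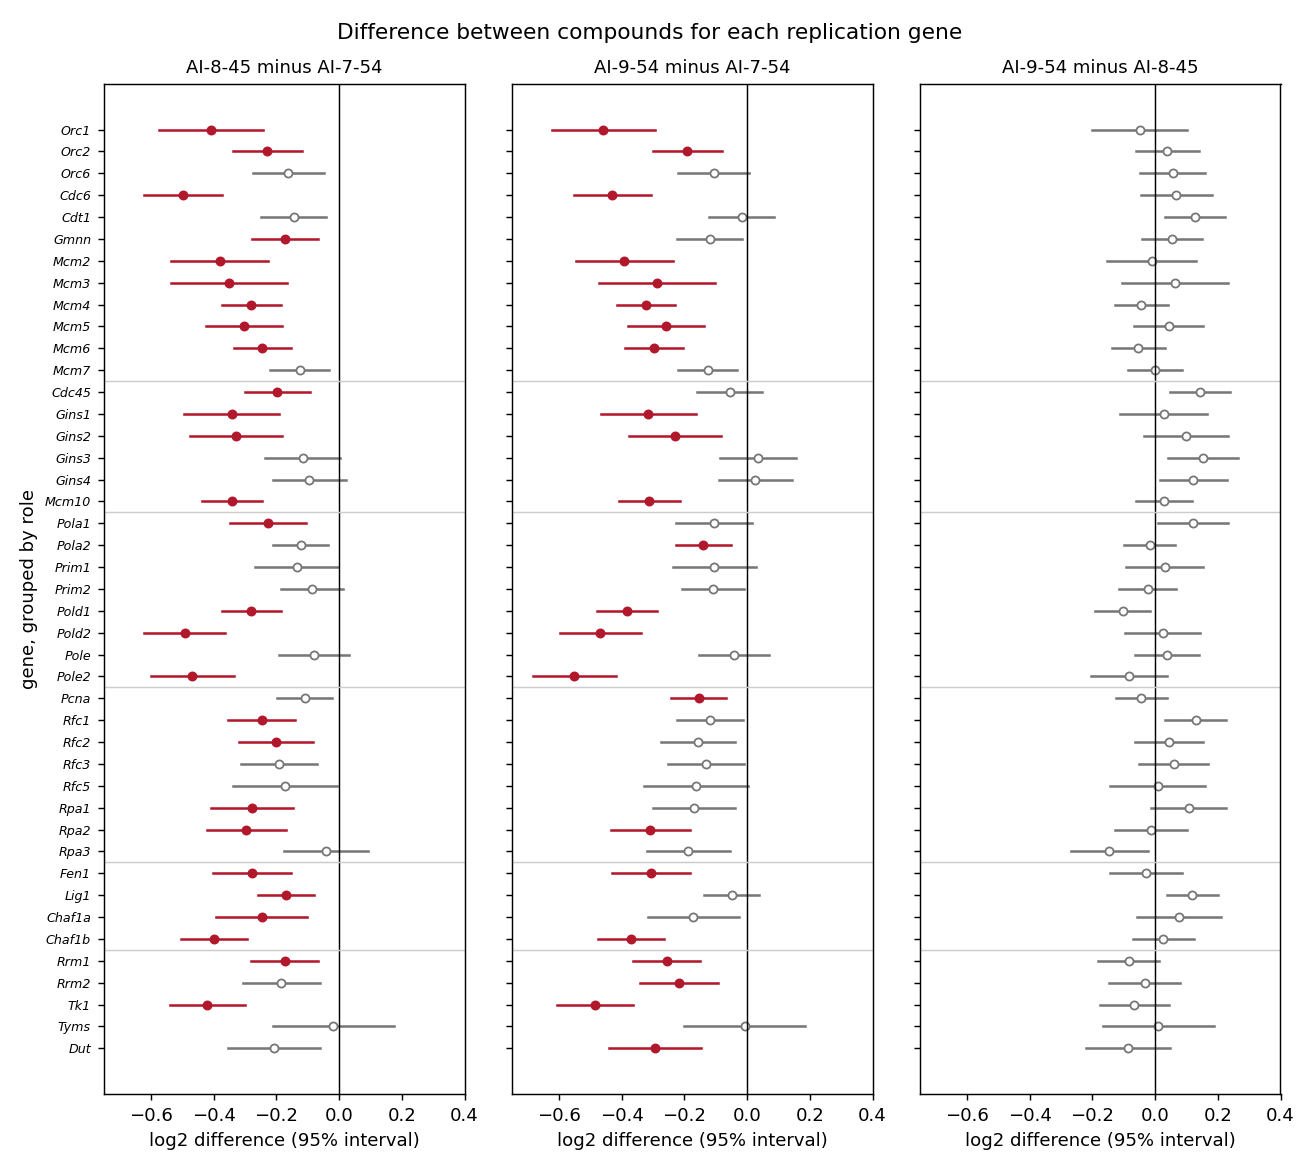
Log2 difference between compounds for each gene, with its 95% interval, for AI-8-45 minus AI-7-54 (left), AI-9-54 minus AI-7-54 (middle) and AI-9-54 minus AI-8-45 (right); filled red points passed the adjusted threshold and open grey points did not. The left panel holds 27 red points and the middle panel 23, all below 0, and the right panel none.

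Among the 12 genes that license origins, 8 were lower with AI-9-54 (median difference -0.27) and 9 with AI-8-45 (median -0.26), each against AI-7-54. Cdc6, the ATPase that recruits the helicase to the origin complex, measured 9.82, 9.91, 10.08 and 9.99 in AI-9-54 cells, 9.79, 9.69, 9.95 and 10.10 in AI-8-45 cells, and 10.28, 10.55 and 10.42 in AI-7-54 cells. Every array of the other compounds was below the lowest AI-7-54 array. Cdc6 had the largest difference of the set at matched dose, -0.50 ± 0.06 (SE), a 1.41-fold lower level (adjusted p = 0.000237). With AI-9-54 it was -0.43 ± 0.06 (adjusted p = 0.000232).

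Orc1, the largest subunit of the origin recognition complex, averaged 8.27 ± 0.15 in AI-9-54 cells and 8.32 ± 0.07 in AI-8-45 cells (SD, n = 4 each), against 8.74 ± 0.06 in AI-7-54 cells (SD, n = 3). Its difference from AI-7-54 was -0.46 for AI-9-54 (limma adjusted p = 0.00111) and -0.41 for AI-8-45 (limma adjusted p = 0.00533). Orc2, another subunit, was also lower in both, by -0.19 and -0.23. Orc6 did not pass the test in either, at -0.11 with AI-9-54 and -0.16 with AI-8-45. Cdt1, which loads the helicase together with Cdc6, did not pass either, at -0.02 and -0.14. Gmnn, the inhibitor of Cdt1, was at -0.12 with AI-9-54, where it did not pass, and at -0.17 with AI-8-45 (limma adjusted p = 0.045). That call was lost without the replicate set (adjusted p = 0.377) and in 9 of 11 fits that each left out 1 array.

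Of the 6 subunits of the Mcm2 to Mcm7 helicase, 5 were lower in each comparison with AI-7-54, with a median of -0.29 in both. Mcm2 spanned 10.90 to 11.18 in AI-9-54 cells, 10.98 to 11.17 in AI-8-45 cells and 11.39 to 11.52 in AI-7-54 cells, without overlap between AI-7-54 and the others. Its differences were -0.39 with AI-9-54 and -0.38 with AI-8-45. Mcm4, Mcm5 and Mcm6 likewise had no AI-7-54 array within the range of the other compounds. Mcm4 spanned 11.37 to 11.59, 11.42 to 11.64 and 11.79 to 11.88 in AI-9-54, AI-8-45 and AI-7-54 cells. Mcm5 spanned 11.44 to 11.69, 11.44 to 11.66 and 11.83 to 11.85 in the same order, and Mcm6 11.21 to 11.45, 11.31 to 11.44 and 11.59 to 11.70. The differences of these 3 subunits lay between -0.32 and -0.26 with AI-9-54 and between -0.30 and -0.24 with AI-8-45. Mcm3 spanned 10.38 to 10.93 in AI-9-54 cells, 10.46 to 10.86 in AI-8-45 cells and 10.93 to 11.14 in AI-7-54 cells. Its spread within groups was wider than that of the other subunits, and its calls (-0.29 and -0.35) were lost without the replicate set, at adjusted p = 0.136 and 0.122. Mcm7 spanned 11.74 to 11.93, 11.78 to 11.91 and 11.92 to 12.01, and at -0.13 in both comparisons it did not pass the test (adjusted p = 0.0644 with AI-9-54 and 0.102 with AI-8-45).

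Of the 6 genes that activate the helicase, 3 were lower with AI-9-54 (median -0.14) and 4 with AI-8-45 (median -0.26). Mcm10 measured 9.26, 9.24, 9.44 and 9.44 in AI-9-54 cells, 9.20, 9.12, 9.44 and 9.51 in AI-8-45 cells, and 9.52, 9.79 and 9.79 in AI-7-54 cells. The highest AI-8-45 array and the lowest AI-7-54 array almost met, and they belong to different replicate sets. Its difference was -0.31 ± 0.04 with AI-9-54 (adjusted p = 0.000394) and -0.34 ± 0.04 with AI-8-45 (adjusted p = 0.000582). Without the replicate set these p-values were 0.0353 and 0.0466.

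GINS is a ring of 4 subunits. Gins1 and Gins2 were lower in both comparisons, Gins1 at -0.32 with AI-9-54 and -0.34 with AI-8-45, and Gins2 at -0.23 and -0.33. Gins3 and Gins4 passed in neither, at 0.04 and 0.03 with AI-9-54 and -0.12 and -0.09 with AI-8-45. Gins1 had one of the widest spreads within a compound, 7.97, 8.17, 8.58 and 8.51 in AI-9-54 cells, 8.15, 8.03, 8.43 and 8.52 in AI-8-45 cells, and 8.51, 8.86 and 8.68 in AI-7-54 cells. Its calls were lost without the replicate set, at adjusted p = 0.142 and 0.181. Cdc45, the helicase partner of GINS, passed at matched dose (-0.20, limma adjusted p = 0.0219) and was -0.05 with AI-9-54. The call of Cdc45 was also lost without the replicate set (adjusted p = 0.269).

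Among polymerases and primase, 4 of 8 genes were lower in each comparison, with medians of -0.12 for AI-9-54 and -0.18 for AI-8-45. Pold2, an accessory subunit of polymerase delta, measured 10.40, 10.43, 10.54 and 10.57 in AI-9-54 cells, 10.47, 10.42, 10.38 and 10.56 in AI-8-45 cells, and 11.01, 10.98 and 10.88 in AI-7-54 cells. The gap between AI-7-54 and the other compounds was wider than the range within any of the 3 groups. Its difference was -0.47 ± 0.06 with AI-9-54 (adjusted p = 0.000163) and -0.49 ± 0.06 with AI-8-45 (adjusted p = 0.000341). The replicate set had little bearing on it, with p-values of 0.000211 and 0.000464 without the factor.

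Pold1, the catalytic subunit of polymerase delta, measured 9.36, 9.40, 9.54 and 9.50 in AI-9-54 cells, 9.52, 9.44, 9.59 and 9.67 in AI-8-45 cells, and 9.82, 9.89 and 9.86 in AI-7-54 cells. The AI-7-54 arrays stood above all others. Its difference was -0.38 ± 0.04 with AI-9-54 (adjusted p = 7.45e-05) and -0.28 ± 0.04 with AI-8-45 (adjusted p = 0.00195).

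Pole2, an accessory subunit of polymerase epsilon, measured 8.99, 9.03, 9.27 and 9.27 in AI-9-54 cells, 9.27, 9.13, 9.18 and 9.32 in AI-8-45 cells, and 9.62, 9.82 and 9.70 in AI-7-54 cells. No array of AI-9-54 or AI-8-45 reached the AI-7-54 range. Pole2 had the largest difference of the set with AI-9-54, -0.55 ± 0.06, a 1.46-fold lower level (adjusted p = 6.33e-05), and was -0.47 ± 0.06 with AI-8-45 (adjusted p = 0.0006). Pole, the catalytic subunit of the same enzyme, was at -0.04 and -0.08 and did not pass in either comparison. Its arrays overlapped, spanning 10.48 to 10.74 in AI-9-54 cells, 10.38 to 10.75 in AI-8-45 cells and 10.58 to 10.80 in AI-7-54 cells.

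Polymerase alpha with its primase starts each new strand. Pola1, its catalytic subunit, was at -0.10 with AI-9-54, where it did not pass, and at -0.23 with AI-8-45 (limma adjusted p = 0.0245). Pola2, its accessory subunit, passed with AI-9-54 (-0.14, limma adjusted p = 0.0292) and was at -0.12 with AI-8-45, where it did not. Both calls were lost without the replicate set, at adjusted p = 0.0748 for Pola1 and 0.166 for Pola2. The primase subunits Prim1 and Prim2 passed in neither comparison, Prim1 at -0.10 and -0.14 and Prim2 at -0.11 and -0.09.

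The clamp, its loader and the single-strand binding proteins gave 2 of 8 genes lower with AI-9-54 (median -0.16) and 4 of 8 with AI-8-45 (median -0.20). Pcna, the sliding clamp, measured 12.25, 12.24, 12.41 and 12.38 in AI-9-54 cells, 12.34, 12.27, 12.44 and 12.42 in AI-8-45 cells, and 12.47, 12.50 and 12.52 in AI-7-54 cells. No array of the other compounds reached the AI-7-54 range, but the shift was small, -0.15 with AI-9-54 (limma adjusted p = 0.0188) and -0.11 with AI-8-45 (limma adjusted p = 0.133). Rpa2, the middle subunit of the single-strand binding trimer RPA, was lower in both, at -0.31 and -0.30. Rpa1, the large subunit, was at -0.17 with AI-9-54, where it did not pass, and lower with AI-8-45 at -0.28. Rpa3, the small subunit, passed in neither (-0.19 and -0.04). In the clamp loader, Rfc1 (-0.25) and Rfc2 (-0.20) were lower with AI-8-45, while Rfc3 (-0.19) and Rfc5 (-0.17) did not pass, and none of the 4 measured subunits passed with AI-9-54 (-0.16 to -0.12).

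All 4 genes of lagging strand processing and chromatin assembly were lower with AI-8-45 (median -0.26), and 2 of 4 with AI-9-54 (median -0.24). Chaf1b, a subunit of the histone chaperone CAF-1 that deposits nucleosomes behind the fork, measured 10.09, 10.19, 10.36 and 10.30 in AI-9-54 cells, 10.17, 10.17, 10.19 and 10.32 in AI-8-45 cells, and 10.54, 10.69 and 10.65 in AI-7-54 cells. The AI-7-54 arrays did not overlap with the rest. Its difference was -0.37 ± 0.05 with AI-9-54 (adjusted p = 0.0002) and -0.40 ± 0.05 with AI-8-45 (adjusted p = 0.00036). Chaf1a, the large subunit of CAF-1, was at -0.17 with AI-9-54, where it did not pass, and lower with AI-8-45 at -0.25. Fen1, the nuclease that trims Okazaki fragments, was lower in both at -0.30 and -0.28, and Lig1, the ligase that seals them, was at -0.05 with AI-9-54, where it did not pass, and lower with AI-8-45 at -0.17. The calls of Fen1, Lig1 and Chaf1a were lost without the replicate set, with adjusted p between 0.108 and 0.219.

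Of the 5 genes of nucleotide supply, 4 were lower with AI-9-54 (median -0.26) and 2 with AI-8-45 (median -0.18). Tk1, the thymidine kinase of the salvage route, measured 9.26, 9.39, 9.37 and 9.32 in AI-9-54 cells, 9.41, 9.23, 9.45 and 9.51 in AI-8-45 cells, and 9.77, 9.87 and 9.87 in AI-7-54 cells. Every array of the other compounds was below the lowest AI-7-54 array. Its difference was -0.48 ± 0.06 with AI-9-54 (adjusted p = 7.45e-05) and -0.42 ± 0.06 with AI-8-45 (adjusted p = 0.000606).

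Tyms, thymidylate synthase of the de novo route, did not pass in either comparison. It measured 9.97, 10.04, 10.18 and 10.14 in AI-9-54 cells, 10.11, 9.75, 10.34 and 10.09 in AI-8-45 cells, and 10.02, 10.07 and 10.28 in AI-7-54 cells. All groups overlapped, and the differences were -0.01 and -0.02 (limma adjusted p = 0.978 and 0.961). The 95% interval at matched dose had an upper bound of 0.18, and the sign turned under several other settings.

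Ribonucleotide reductase, which makes deoxynucleotides, is formed by Rrm1 and Rrm2. Rrm1 spanned 11.44 to 11.79 in AI-9-54 cells, 11.61 to 11.86 in AI-8-45 cells and 11.77 to 11.99 in AI-7-54 cells, and Rrm2 10.47 to 10.89, 10.63 to 10.87 and 10.75 to 11.07. Both genes overlapped between AI-7-54 and the other compounds. With AI-9-54 they were lower at -0.26 and -0.22, though without the replicate set neither passed (adjusted p = 0.0641 and 0.157). With AI-8-45 Rrm1 was at -0.17 (limma adjusted p = 0.0482), a call lost in 10 of 11 fits that left out an array, and Rrm2 at -0.18 did not pass. Dut, the dUTPase that keeps uracil out of DNA, was lower with AI-9-54 (-0.29, limma adjusted p = 0.00858) and at -0.21 with AI-8-45 (limma adjusted p = 0.0847).

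**Figure D4:**
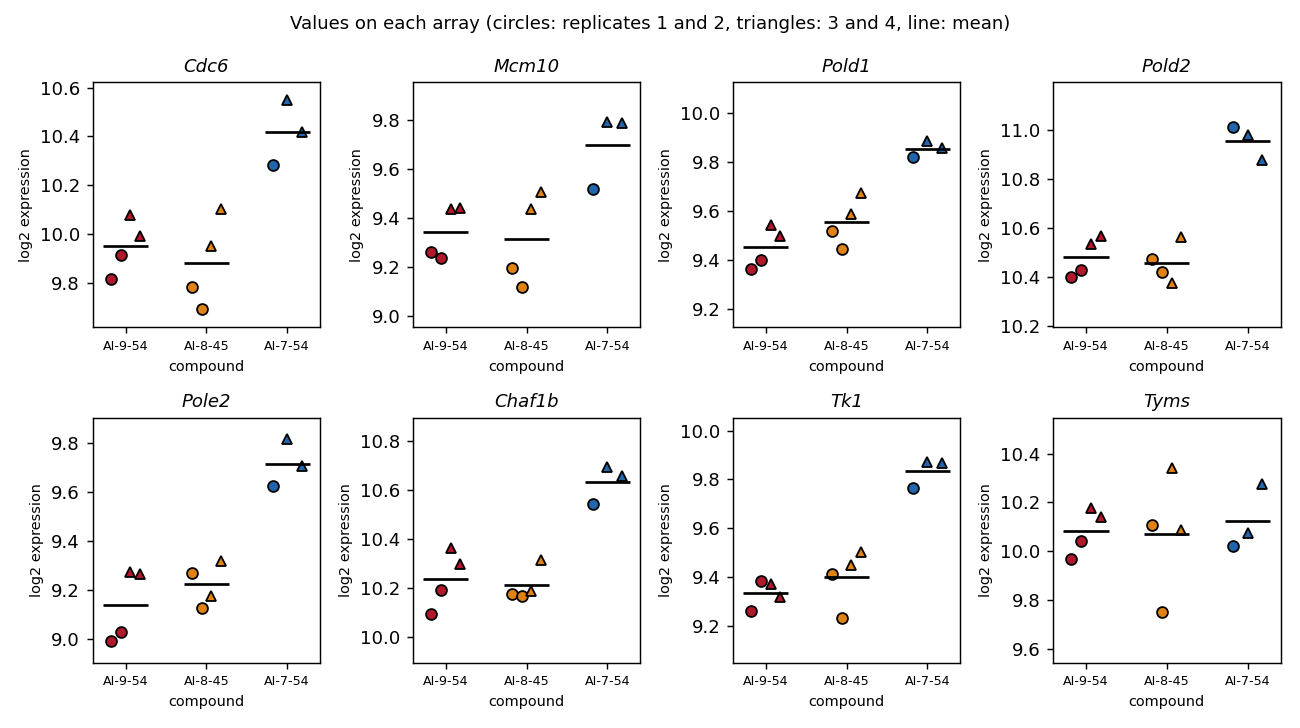
Log2 expression on each array for 8 genes, by compound; circles are replicates 1 and 2, triangles replicates 3 and 4, and lines the group means. For Cdc6, Pold1, Pold2, Pole2, Chaf1b and Tk1 every AI-7-54 array is above every other array, as it is by a small margin for Mcm10, while the 3 compounds overlap for Tyms.

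Without the replicate set 11 calls at matched dose were lost, those of Gmnn, Mcm3, Cdc45, Gins1, Pola1, Rfc2, Rpa2, Fen1, Lig1, Chaf1a and Rrm1. With AI-9-54 8 were lost, those of Mcm3, Gins1, Gins2, Pola2, Pcna, Fen1, Rrm1 and Rrm2. At matched dose 14 of the 27 calls held in all 11 fits that each left out 1 array. The 13 others were Orc2, Gmnn, Mcm3, Cdc45, Gins1, Gins2, Pola1, Rfc2, Rpa1, Fen1, Lig1, Chaf1a and Rrm1. Without replicate 1 of AI-7-54 all of these but Orc2 lost the call, and without replicate 3 of AI-7-54 10 did. With AI-9-54 15 of the 23 calls held throughout, and Orc2, Mcm3, Mcm5, Gins1, Gins2, Pola2, Pcna and Rrm2 did not. The calls lost were 6 without replicate 1, 4 without replicate 3 and 3 without replicate 4 of AI-7-54, and at most 3 without any AI-9-54 array.

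Between AI-9-54 and AI-8-45 no replication gene passed the test, including those that passed against AI-7-54 with one of the compounds and not with the other. By limma 0 of the 43 were lower and 0 higher (AI-9-54 minus AI-8-45), where 1.76% of all genes were called lower and 1.92% higher, and 9 of the 43 had an unadjusted p under 0.05. Without the replicate set 0.6% of all genes were called lower and 0.708% higher, and again no replication gene was. Differences were below 0 for 17 of the 43, against 49.9% of all genes. The median was 0.03, single differences lay between -0.15 and 0.15, and 34 of the 43 intervals held 0. Across the set the 95% intervals reached no lower than -0.27 (Rpa3) and no higher than 0.26 (Gins3), and differences beyond those bounds lay outside every interval of the set. The 6 helicase activation genes were all above 0, with a median of 0.11. The smallest adjusted p belonged to Cdc45, at 0.14 (95% interval 0.05 to 0.24, limma adjusted p = 0.11), and Lig1, at 0.12 (0.04 to 0.20, limma adjusted p = 0.12). Arrays did not overlap for 0 of the 43 genes in either direction, against 2.84% of all genes with AI-9-54 below and 3.83% above.

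The level of replication genes also differed between replicate sets. The sets were chosen after earlier results showed that they separate the arrays, so the set counts and p-values here only describe these arrays. Replicates 3 and 4 were higher than replicates 1 and 2 for 17 of the 43 genes and lower for 0, where 3.88% of all genes were called higher and 3.19% lower. The median difference (sets 3 and 4 minus 1 and 2) was 0.14, and 42 of 43 were above 0. The largest set differences were those of Gins1 at 0.39 (limma adjusted p = 0.00112) and Fen1 at 0.35 (limma adjusted p = 0.000669), and Gmnn, Mcm3 and Rpa3 reached 0.29, 0.30 and 0.30. Pold2 (0.04), Orc1 (0.05), Rfc1 (0.03) and Orc2 (-0.04) differed little between sets. The compound differences had the same sign in both sets for all 27 genes called at matched dose and all 23 called with AI-9-54. Those genes were called from these same arrays, so this was largely fixed in advance. Of all 43 genes, 43 within replicates 1 and 2 and 42 within 3 and 4 were below 0 at matched dose, against 10628 and 11361 of 22180 genes. With AI-9-54 they were 41 and 40, against 10005 and 12122 of 22180. Within replicates 1 and 2 the median of the 43 was -0.26 for AI-9-54 and -0.22 for AI-8-45 against the single AI-7-54 array there, and within replicates 3 and 4 it was -0.14 and -0.24. An interaction of compound and set was also fitted. With a single AI-7-54 array in replicates 1 and 2, it cannot decide whether the compound differences match between sets.

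The 43 genes also varied together once the means of compound and set were taken out. Over the 903 gene pairs the median correlation of the 11 residuals was 0.437, and 84.7% of pairs were above 0. For 39 other replication genes the median was 0.146 over 741 pairs, and for all genes it was 0.005. These are descriptions over 11 arrays that all genes share.

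Genes with and without the promoter letters were counted among those that passed. Of the 13 genes with the E2F letters 7 were lower with AI-9-54 (median -0.26) and 9 with AI-8-45 (median -0.24). Of the 22 genes whose promoters lack them 13 were lower in each comparison (medians -0.19 and -0.22), and this difference was not tested. Cdc6, Pole2 and Pold1, printed above, hold the letters, while Pold2 and Tk1 do not. Of the 7 genes with TGTGGT, 5 were lower with AI-9-54 (median -0.26) and 6 with AI-8-45 (median -0.25). Of all 43 genes 23 and 27 were lower (medians -0.19 and -0.23), and this difference was not tested either.

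A further list of 42 replication genes, of which 39 were measured, was set against AI-7-54 in the same fit. With AI-9-54 12 of the 39 were lower and 3 higher (median -0.07), where 9.21% of all genes were called lower and 8.99% higher, so the higher calls were near the share of all genes. With AI-8-45 8 were lower and 1 higher (median -0.09), where 5.19% of all genes were called lower and 3.59% higher. These shares were larger among brighter genes, as given above. The counts without the replicate set were 8 lower and 3 higher with AI-9-54, and 6 lower and 0 higher with AI-8-45. Dctpp1, which hydrolyses dCTP, had the lowest difference of the list, -0.78 with AI-9-54 (limma adjusted p = 1.59e-05) and -0.56 with AI-8-45 (limma adjusted p = 0.00052). Uhrf1, which brings the maintenance DNA methyltransferase to new DNA, was at -0.46 and -0.41, Wdhd1, which ties polymerase alpha to the helicase, at -0.35 and -0.31, and Tipin, a fork protection factor, at -0.44 and -0.26, and all passed in both.

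Genes of this list that were higher included a nucleotide-degrading enzyme. Samhd1, which breaks down deoxynucleotides, averaged 7.20 in AI-9-54 cells and 6.91 in AI-8-45 cells, against 6.40 in AI-7-54 cells. On the AI-9-54 arrays it measured 6.90, 6.89, 7.48 and 7.54, so replicates 3 and 4 stood above replicates 1 and 2. Its difference was 0.85 with AI-9-54 (limma adjusted p = 0.000144), 0.54 within replicates 1 and 2 and 1.09 within replicates 3 and 4, and 0.56 with AI-8-45 (limma adjusted p = 0.00596), and the call with AI-8-45 was lost without the replicate set (adjusted p = 0.0592). Pold4, the smallest subunit of polymerase delta, and Tk2, the mitochondrial thymidine kinase, were higher with AI-9-54 at 0.35 and 0.26 (limma adjusted p = 0.00161 and 0.00737). Between AI-9-54 and AI-8-45, Mtbp, which takes part in origin firing, and Clspn, a checkpoint mediator at the fork, were higher with AI-9-54 at 0.22 and 0.18, and neither passed without the replicate set (adjusted p = 0.15 and 0.217).

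Of 11 measured E2F, cyclin and Cdk genes, 5 were lower and 1 higher with AI-9-54, where 9.21% of all genes were called lower and 8.99% higher, so the 1 higher call was near the share of all genes. With AI-8-45 4 were lower and 0 higher, where 5.19% were called lower and 3.59% higher. Here too the shares were larger among brighter genes. E2f1, an activator of S-phase genes, was at -0.40 with AI-9-54 (limma adjusted p = 6.44e-05) and -0.43 with AI-8-45 (limma adjusted p = 0.00012). E2f4, the E2F best known as a repressor, was at -0.51 and -0.31, and Ccne1, the cyclin of the G1 to S transition, at -0.17 and -0.35. E2f8, another repressor, was higher with AI-9-54 at 0.31 (limma adjusted p = 0.00286) and was named after its values were seen. Between AI-9-54 and AI-8-45, E2f4 was lower (-0.19, limma adjusted p = 0.0184) and Ccne1 higher (0.19, limma adjusted p = 0.027), and the call of Ccne1 was lost without the replicate set (adjusted p = 0.108).

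Cell identity was checked on the same arrays. All 9 measured T-cell markers of 10 listed were above the median gene. Their mean per array was 10.5 to 10.7 in AI-9-54 cells, 10.7 to 10.9 in AI-8-45 cells and 10.8 to 11.1 in AI-7-54 cells. Against AI-7-54, 4 of 9 were lower with AI-9-54 and 3 of 9 with AI-8-45, where 9.21% and 5.19% of all genes were. Cd5, Cd2 and Ptcra were among them in both. In the fit without the set 4 of 9 were lower with AI-9-54 and 1 of 9 with AI-8-45, where 7.29% and 3.53% of all genes were. There Cd2 (limma adjusted p = 0.381) and Ptcra (limma adjusted p = 0.283) lost their calls with AI-8-45. Between AI-9-54 and AI-8-45 3 of 9 were lower (Thy1, Cd2 and Ptcra), where 1.76% of all genes were. Without the replicate set it was 1 of 9, where 0.6% of all genes were. Markers of B cells (5 of 6 measured), myeloid cells (6 of 6), erythroid cells (2 of 6) and stromal or endothelial cells (6 of 6) gave 0 calls between compounds by limma, with at most 2 genes of a list at an unadjusted p under 0.05. Their means per array stayed between 5.96 and 6.19, 6.13 and 6.29, 7.20 and 7.58, and 7.52 and 7.70, with overlapping ranges of the 3 groups, and on this platform no level marks a gene as absent. In the same order 1, 1, 1 and 3 of their measured markers were above the median gene. Among these, the endothelial marker Pecam1 averaged 11.23, 11.37 and 11.33 in AI-9-54, AI-8-45 and AI-7-54 cells. The erythroid marker Epor averaged 8.48, 8.62 and 8.56. The part of the T-cell marker shift in the replication gene differences was not tested.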

How the data were processed

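Single-colour Affymetrix whole-transcript arrays measured biotin-labelled RNA amplified with the Ambion WT Expression Kit, per the labels' protocols. RMA and Partek 6.6 are the tools that the submitters' processing notes list. Values in the deposited table were taken as log2 (3.23 to 13.8, array medians 6.61 to 6.68), a scale read from that range and not stated. All its columns were mapped to samples.

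Of 41345 probe sets, 23521 had 1 symbol in the platform annotation, 1814 several, and 16010 were unnamed here; 23328 were found by Entrez identifier in RefSeq's GRCm38.p6 table. They gave 22180 genes, each read from its brightest probe set (1082 genes had several), with no filter on dim genes. The 6 replication genes with another probe set (Pole, Rpa1, Rpa3, Fen1, Rrm2 and Dut) had the same sign there in both comparisons with AI-7-54.

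Compound and replicate set were fitted with limma 3.58.1 (R 4.3.3; lmFit, eBayes) on all 11 arrays (7 residual and 4.752 prior degrees of freedom), two-sided, with Benjamini-Hochberg adjustment over all genes of a comparison and calls at an adjusted p under 0.05. The fit was tested on simulated data. Members, lists, motifs and the replicate set were chosen with earlier results of these data known. Values on every array were given for the 4 called genes with the smallest adjusted p per comparison and for a few fixed genes; other replication genes were named up to 3 per direction and comparison, and E2F and cyclin genes up to 2. Figures used matplotlib 3.10.9 in Python 3.11.15. Alternatives covered the set, replicate blocks, scaling, filters, probe sets, prior, array weights and left-out arrays.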

Additional observations from a re-analysis of the deposited data

Results flagged for a closer look

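In 4 of 86 groups of 4 arrays (43 genes, AI-9-54 and AI-8-45), 1 array stood far from the other 3 by Dixon's criterion, and chance gives about 1 in 20. In all 4 it was replicate 4 of AI-8-45, on the high side. Mcm5 was 11.6638 there (11.44 to 11.48 on the others), Gins4 11.1939 (10.96 to 10.99), Rfc3 10.0522 (9.84 to 9.87) and Chaf1b 10.3151 (10.17 to 10.19). Without that array Mcm5 and Chaf1b stayed lower than in AI-7-54 cells.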

How the results depend on the processing

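No member was called higher against AI-7-54 under any alternative run, and the median of the 43 genes stayed below 0 in both comparisons with it. Members called lower (23 with AI-9-54 and 27 with AI-8-45) numbered 15 and 16 with no replicate set, 15 and 16 with the replicate number as a random block, 18 and 20 with it as a fixed replicate block, 5 and 0 within replicates 1 and 2, and 10 and 7 within replicates 3 and 4, where fewer arrays entered. Same-numbered arrays correlated between -0.02 and 0.45 in their deviations from the group means, so the numbers were not taken to pair samples. The other alternatives on all arrays gave 21 to 27 and 22 to 34. Leaving out 1 array gave 17 to 25 with AI-9-54 (median difference -0.21 to -0.15) and 15 to 26 with AI-8-45 (-0.25 to -0.18). Of all 22180 genes those fits called 1495 to 2208 and 687 to 1136 lower. Between AI-9-54 and AI-8-45 leaving out 1 array gave 0 to 1 called lower, 0 called higher and a median of 0.00 to 0.05. The 1 was Dut, without replicate 3 of AI-8-45, where 346 of all 22180 genes were called lower. Without the dimmest 50% of genes 2 were higher (Cdc45 and Lig1), where 644 of 11090 genes were. With an intensity trend 1 was higher (Lig1), where 534 of 22180 genes were. These counts were near the share of all genes. Signs turned for genes near 0. Tyms with AI-9-54 was 0.0187 with the fixed block, 0.00838 after quantile normalization and -0.0663 to 0.0348 with 1 array left out. Tyms with AI-8-45 was 0.00868 with the fixed block, 0.00877 after quantile normalization, 0.0401 within replicates 3 and 4 and -0.0893 to 0.0557 with 1 array left out. Cdt1 with AI-9-54 was 0.00315 with the fixed block, 0.000751 after quantile normalization, 0.0361 within replicates 3 and 4 and -0.0399 to 0.0315 with 1 array left out, and Rpa3 with AI-8-45 was -0.0721 to 0.0271 with 1 array left out. Between AI-9-54 and AI-8-45 21 of the 43 genes, all within 0.11 of 0, turned sign under some alternative, and Cdc45, Lig1, Rpa3 and Gins3 did not. The cause of these changes was not tested. Over all genes, the fit without the replicate set made 3139 calls with AI-9-54 and 1255 with AI-8-45 against AI-7-54, and 290 between AI-9-54 and AI-8-45, against 4036, 1949 and 816 with the set. The named E2F, cyclin and other replication genes were put through the same alternatives after seeing the data. None of these turned sign, and between AI-9-54 and AI-8-45 Mtbp lost its call in 15 of 24 alternatives, Clspn in 16, Ccne1 in 12 and E2f4 in 8.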
